A study of Mus musculus with 23 samples.

Results

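Cancer-associated fibroblasts (CAFs) of a breast carcinoma model, EO771, were compared directly with CAFs of a pancreatic ductal carcinoma model, Pan02. The comparison used 4 RNA sequencing libraries, 2 of EO771 CAFs and 2 of Pan02 CAFs, of 23 samples in the series. They were assigned to the groups by their labels, from 8 CAF libraries of 4 tumor models, and 3 whole tumors of each of the same models were compared beside them. Both cell lines derive from C57BL/6 mice and were grown in adult female C57BL/6 mice as subcutaneous flank tumors after injection of 500000 cells. EO771 stands for the EO771.LMB line. In both groups the CAFs were cells left after removal of CD45+ leukocytes with magnetic beads, and were then sorted as live FAP+ cells. The gate did not exclude CD31+ endothelial cells or use an epithelial marker, so the only positive selection was for FAP. EO771 cells were cultured before injection with 20% fetal bovine serum and Pan02 cells with 10%. Each model was sorted in 2 rounds, and neither the labels nor the methods state how many mice went into a sort or that the 2 libraries came from separate mice, so p-values measure only the spread between these libraries. Model, tumor site of origin and culture cannot be told apart here. Whether the 2 models shared a round of sorting is not stated.

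In solid tumors, fibroblasts lay down much of the fibrous matrix between the cells. FAP is a serine protease on the surface of activated fibroblasts. CAFs are commonly divided into contractile, matrix-forming myofibroblastic cells (myCAFs), cytokine-secreting inflammatory cells (iCAFs) and antigen-presenting cells (apCAFs), which carry MHC class II molecules. In pancreatic tumors apCAFs have been related to mesothelial cells, the lining cells of body cavities, which also make keratins.

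Expression is given as RPKM, reads per kilobase of transcript scaled to the reads of the library, and the 4 values of a gene are printed as EO771 libraries 1 and 2 and then Pan02 libraries 1 and 2. Log2 differences are of log2(RPKM + 1), EO771 minus Pan02, so that a positive value is higher in EO771 CAFs. Their errors are standard errors (SE) with n = 2 libraries a group. The added 1 makes them smaller than the change itself for genes of low level. A gene is called higher in a model where limma gave an adjusted p under 0.05 and the log2 difference was at least 1. The RPKM values of the libraries trace back to 13606794.5 to 18155733 reads counted on these genes. Across the 12694 genes tested, the EO771 libraries correlated with each other at r = 0.994 and the Pan02 libraries at r = 0.980, against 0.801 to 0.813 between models. The Pan02 libraries stood further apart, with 282 genes that differed at least 2-fold between them against 49 in EO771. In bulk RNA, fewer cells of a type and less RNA per cell cannot be told apart.

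Of the 12694 genes tested, 1787 (14.1%) were higher in EO771 CAFs and 1647 (13.0%) were higher in Pan02 CAFs, and the median log2 difference of all tested genes was -0.05. Both EO771 libraries were above both Pan02 libraries for 39.9% of tested genes, and both below for 44.3%. The shares of called genes are the background against which each gene group below is read. The genes higher in EO771 CAFs included collagen, contractile, chemokine and complement genes, and those higher in Pan02 CAFs included MHC class II, guanylate-binding protein, keratin and epithelial junction genes. With 2 libraries against 2, an exact permutation test of a single gene cannot go below a two-sided p of 0.333, so every call rests on the spread that limma shares across genes.

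The label was first checked against fibroblast markers. All 11 markers were measured, with a median log2 difference of 1.15. Of these, 6 were higher in EO771 CAFs and none in Pan02 CAFs, against 14.1% and 13.0% of all genes. *Fap*, the gene of the sorting marker, measured 6.46 and 7.16 RPKM in the EO771 libraries and 3.28 and 1.89 RPKM in the Pan02 libraries. Both EO771 values lay above both Pan02 values, and the log2 difference was 1.15 ± 0.21 (SE, adjusted p = 0.0061). Without Pan02 library 2 that difference was 0.87, under the size needed for a call, and without EO771 library 2 its adjusted p was 0.056. *Pdgfra*, a receptor for platelet-derived growth factor found on most fibroblasts, measured 31.4 and 29.6 RPKM in the EO771 libraries and 18.4 and 27.5 RPKM in the Pan02 libraries, and *Pdgfrb*, its sister receptor, 42.2 and 35.6 RPKM against 68.7 and 50.7 RPKM. Neither was called, with log2 differences of 0.42 (adjusted p = 0.11) and -0.59 (adjusted p = 0.031). Fibroblast markers were therefore present in all 4 libraries. Their presence does not give the share of fibroblasts in a library, which was not tested. *Thy1*, which encodes the surface glycoprotein CD90, differed most of the list, with 232 and 241 RPKM in the EO771 libraries and 31.7 and 15.02 RPKM in the Pan02 libraries and a log2 difference of 3.38 ± 0.33 (SE, adjusted p = 0.0008). *Pdpn*, encoding podoplanin, measured 58.0 and 64.4 RPKM against 12.3 and 4.41 RPKM (2.87). The other markers not called were *Dcn*, *Lum* and *Vim*, which are named because they complete the list.

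**Figure D1:**
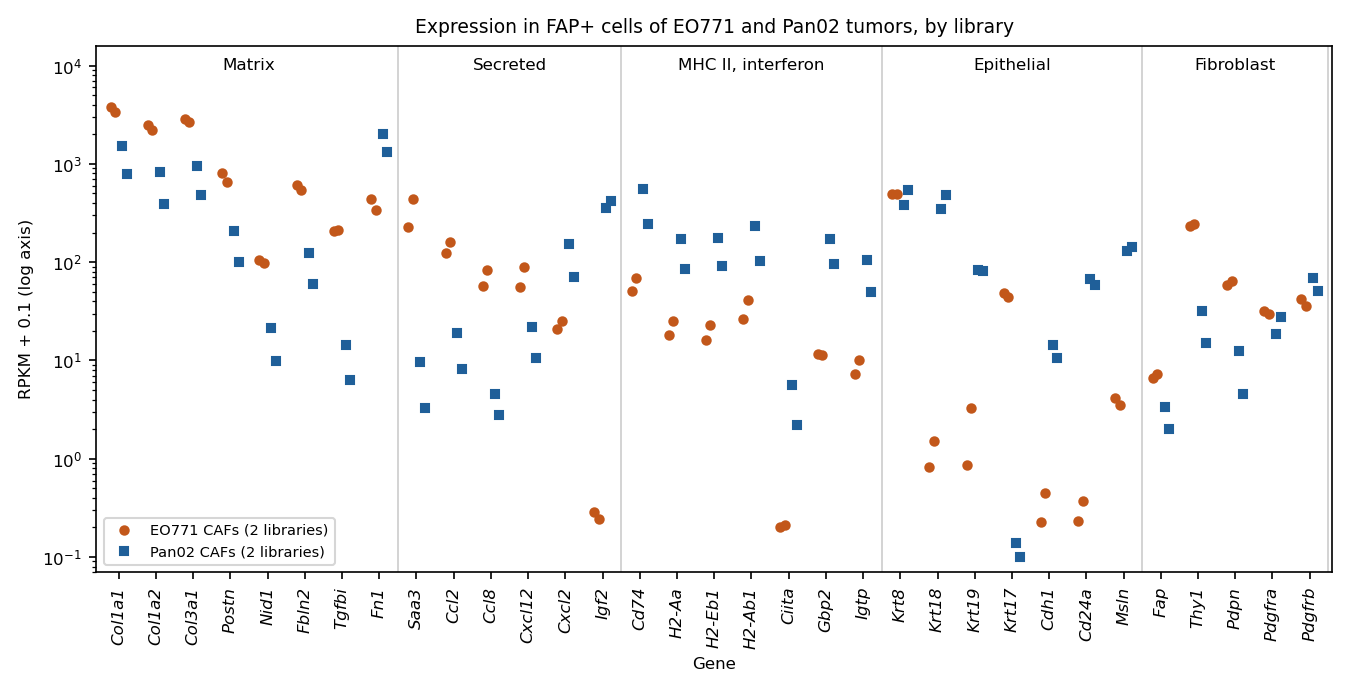
RPKM of chosen genes in each CAF library, on a log axis after adding 0.1, with genes grouped by role along the horizontal axis. Circles are the 2 EO771 libraries and squares the 2 Pan02 libraries. The 2 EO771 libraries lay above both Pan02 libraries for *Col1a1*, *Saa3* and *Thy1*, and below them for *Cd74*, *Krt18* and *Igf2*, while the *Krt8* values overlapped.

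Collagen type I, a heterotrimer of the products of *Col1a1* and *Col1a2*, is the main fibrillar collagen of tumor stroma. *Col1a1* (chr11:94936224-94953042, plus strand, mm10) measured 3773 and 3362 RPKM in the EO771 libraries and 1535 and 795 RPKM in the Pan02 libraries. Both EO771 libraries were above both Pan02 libraries, on average 3.06-fold, and the Pan02 libraries themselves differed by more than the EO771 libraries did. The log2 difference of *Col1a1* was 1.69 ± 0.33 (SE, adjusted p = 0.0079), and its call was lost without EO771 library 1 (adjusted p = 0.072), without EO771 library 2 (adjusted p = 0.062) and when all 8 CAF libraries shared 1 estimate of spread (adjusted p = 0.092). *Col1a2* measured 2474 and 2229.9 RPKM against 834 and 386 RPKM (2.05 ± 0.37 SE, adjusted p = 0.0057). *Col3a1*, which forms mixed fibrils with collagen I, measured 2827 and 2692 RPKM against 954 and 486 RPKM (2.02 ± 0.33 SE, adjusted p = 0.0041). *Col5a2* and *Col5a3*, chains of collagen V that regulates fibril diameter, gave log2 differences of 2.07 and 2.47. Of 11 fibrillar collagen genes 10 were tested, and 8 were higher in EO771 CAFs and none in Pan02 CAFs, against the 14.1% of all genes. The count ran from 6 to 9 when 1 library was left out.

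Non-fibrillar collagens went both ways. Of 33 genes 17 were tested, and 9 were higher in EO771 CAFs and 3 in Pan02 CAFs, against 14.1% and 13.0% of all genes. *Col7a1*, the anchoring fibril collagen, measured 119 and 66.8 RPKM in the EO771 libraries and 11.6 and 17.1 RPKM in the Pan02 libraries, and all EO771 values were the higher ones (2.58 ± 0.31 SE, adjusted p = 0.0015). *Col15a1* and *Col16a1* gave log2 differences of 2.15 and 2.20. *Col28a1*, a collagen with von Willebrand factor domains, measured 2.38 and 2.70 RPKM in the EO771 libraries and 79.0 and 80.0 RPKM in the Pan02 libraries. It was 31.3-fold higher in Pan02 CAFs (-4.51 ± 0.10 SE, adjusted p = 3.5e-05). *Col18a1*, the basement membrane collagen from which endostatin is cut, measured 153 and 147 RPKM against 328 and 449 RPKM (-1.35). The third gene higher in Pan02 CAFs was *Col8a1* (-1.03), and the size of its log2 difference was under 1 without EO771 library 1 and without Pan02 library 1.

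All 24 genes of collagen processing and crosslinking were tested. Of these, 12 were higher in EO771 CAFs and 2 in Pan02 CAFs, against 14.1% and 13.0% of all genes. *Loxl2*, a lysyl oxidase that crosslinks collagen, measured 53.5 and 53.1 RPKM in the EO771 libraries and 10.4 and 5.04 RPKM in the Pan02 libraries. *Adamts2*, which removes the amino-terminal propeptide of procollagen, measured 77.2 and 67.1 RPKM against 16.04 and 8.79 RPKM. Their log2 differences were 2.71 ± 0.29 (SE, adjusted p = 0.0011) and 2.498 ± 0.27 (SE, adjusted p = 0.0011), with the EO771 libraries close to each other in both. *P4ha3*, a prolyl 4-hydroxylase subunit, and *Pcolce2*, an enhancer of procollagen cleavage, differed by 2.08 and 2.15. The pair higher in Pan02 CAFs was *Tgm2*, a transglutaminase, with 84.2 and 85.5 RPKM against 196 and 271 RPKM (-1.43 ± 0.17 SE, adjusted p = 0.0015), and *P3h2*, a prolyl 3-hydroxylase of low level in EO771 CAFs, with 0.671 and 0.582 RPKM against 8.28 and 6.45 RPKM (-2.35).

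Among 38 matrix glycoproteins, all tested, 18 were higher in EO771 CAFs and 6 in Pan02 CAFs, against 14.1% and 13.0% of all genes. The Pan02 count was near its share. *Tgfbi*, a secreted adhesion protein named for its induction by TGF-β, measured 207 and 209.8 RPKM in the EO771 libraries and 14.4 and 6.18 RPKM in the Pan02 libraries and gave a log2 difference of 4.32 ± 0.35 (SE, adjusted p = 0.00048). *Postn*, encoding periostin, measured 801 and 652 RPKM in the EO771 libraries and 205 and 99.1 RPKM in the Pan02 libraries. *Fbln2* and *Nid1*, which encode fibulin 2 and the basement membrane linker nidogen 1, measured 616 and 544 RPKM against 124 and 59.2 RPKM and 104 and 98.7 RPKM against 21.3 and 9.74 RPKM. For *Postn*, *Fbln2* and *Nid1* the log2 differences were 2.33, 2.74 and 2.73, and the groups did not overlap. *Fn1*, encoding the cell-adhesive glycoprotein fibronectin, went the other way, with 438 and 339 RPKM in the EO771 libraries and 1991 and 1321 RPKM in the Pan02 libraries (-2.07 ± 0.25 SE, adjusted p = 0.0015). Both Pan02 libraries held at least 3 times the level of either EO771 library. The latent TGF-β binding proteins *Ltbp1* and *Ltbp3*, which hold TGF-β in the matrix, were also higher in Pan02 CAFs, with 11.1 and 9.68 RPKM against 54.4 and 60.3 RPKM and 52.0 and 46.6 RPKM against 211 and 189 RPKM (-2.36 and -2.00). *Matn2*, encoding matrilin 2, differed by -2.35.

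Of 21 proteoglycans 18 were tested, and 7 were higher in EO771 CAFs and 3 in Pan02 CAFs, against 14.1% and 13.0% of all genes. The first count was 4 without EO771 library 2. *Vcan*, encoding the large proteoglycan versican, measured 17.2 and 18.1 RPKM in the EO771 libraries and 4.80 and 2.67 RPKM in the Pan02 libraries (2.02 ± 0.23 SE, adjusted p = 0.0013). *Prelp*, a small leucine-rich proteoglycan of basement membranes, measured 31.5 and 36.5 RPKM against 126 and 147 RPKM, and *Sdc3*, a cell-surface heparan sulfate proteoglycan, 10.0 and 10.2 RPKM against 48.0 and 41.4 RPKM. Both were higher in Pan02 CAFs, with log2 differences of -1.98 ± 0.13 (SE, adjusted p = 0.00028) and -2.04 ± 0.11 (SE, adjusted p = 0.0002). Of 11 laminin chains 7 were tested, and 3 were higher in EO771 CAFs, *Lama4* (1.74) among them. *Lama5*, the chain higher in Pan02 CAFs (-1.08), differed by -0.89 without EO771 library 2.

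Matrix metalloproteinases degrade collagen and other matrix proteins. Of 21 genes of these enzymes and their TIMP inhibitors 16 were tested. Of those, 9 were higher in EO771 CAFs and 2 in Pan02 CAFs, against 14.1% and 13.0% of all genes. The Pan02 count was near its share. *Mmp13*, a collagenase, measured 54.1 and 23.8 RPKM in the EO771 libraries and 2.63 and 0.934 RPKM in the Pan02 libraries, and *Mmp10*, a stromelysin, 40.4 and 27.9 RPKM against 0.789 and 0.032 RPKM. The EO771 libraries differed by more than 2-fold for *Mmp13* and were still both above the Pan02 libraries (3.80 ± 0.46 SE, adjusted p = 0.0015), and *Mmp10* differed by 4.67 ± 0.31 (SE, adjusted p = 0.0003). *Mmp9*, a gelatinase, measured 23.4 and 18.9 RPKM against 2.42 and 1.18 RPKM (3.01). *Mmp3*, a second stromelysin, measured 111 and 134 RPKM against 28.8 and 12.7 RPKM (2.61). The pair higher in Pan02 CAFs was *Mmp28*, encoding epilysin, with 1.15 and 0.963 RPKM in the EO771 libraries and 20.02 and 29.1 RPKM in the Pan02 libraries (-3.61 ± 0.20 SE, adjusted p = 0.00019), and *Mmp15*, a membrane-bound enzyme (-2.58).

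**Figure D2:**
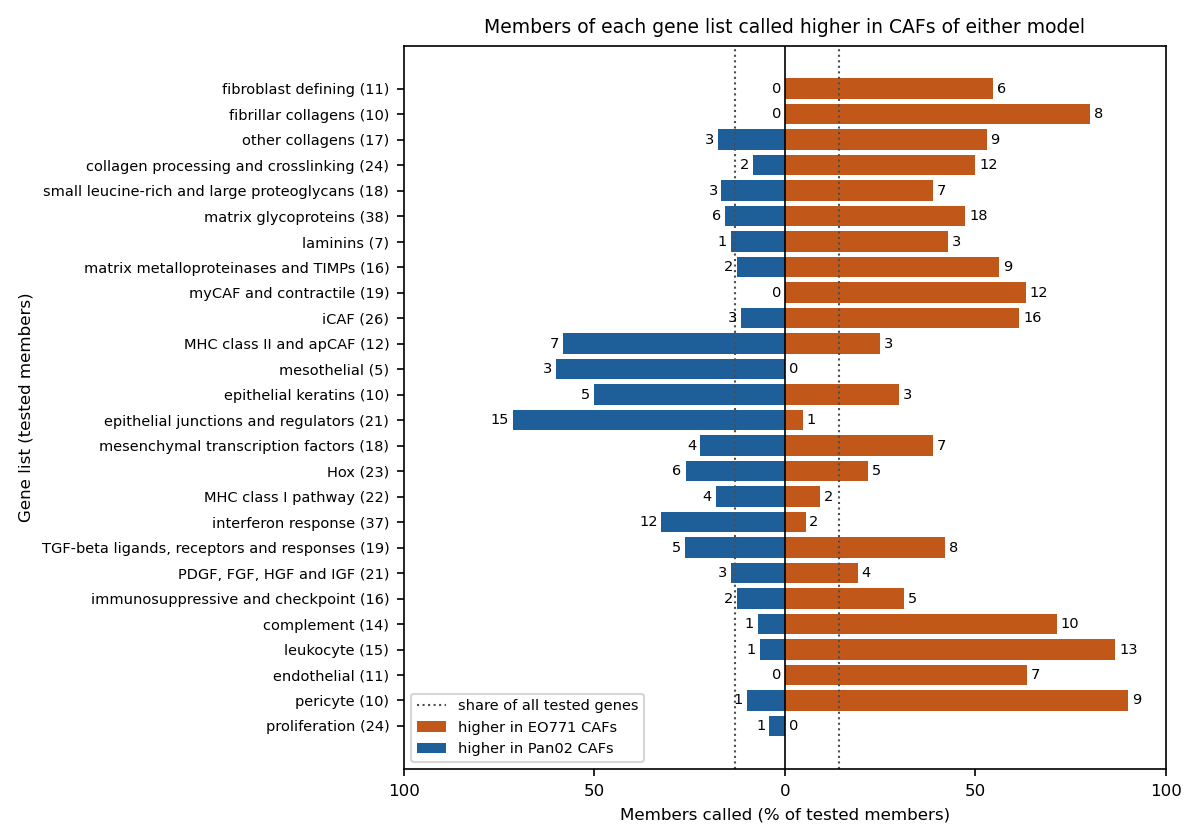
Share of tested members of each gene group called higher in EO771 CAFs or in Pan02 CAFs, in percent. Bars start at 0 and run right for EO771 and left for Pan02, and the dotted lines mark the shares of all tested genes, 14.1% and 13.0%. Pericyte, leukocyte and fibrillar collagen genes had the 3 largest EO771 shares, and epithelial junction, mesothelial and MHC class II genes the 3 largest Pan02 shares.

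Contractile and myCAF genes were called in 1 direction only. Of 20 genes 19 were tested, and 12 were higher in EO771 CAFs and none in Pan02 CAFs, against 14.1% and 13.0% of all genes. The median log2 difference of the tested members was 1.44. *Acta2*, encoding α-smooth muscle actin and the usual myCAF marker, measured 157 and 159.6 RPKM in the EO771 libraries and 119 and 89.1 RPKM in the Pan02 libraries. Its log2 difference of 0.62 ± 0.16 (SE, adjusted p = 0.019) was under the size needed for a call. *Actg2*, encoding a smooth muscle γ-actin, measured 45.6 and 41.9 RPKM in the EO771 libraries and 5.00 and 1.69 RPKM in the Pan02 libraries (3.48 ± 0.37 SE, adjusted p = 0.001). *Tagln*, encoding the actin-binding protein transgelin, measured 172 and 176 RPKM against 41.9 and 20.4 RPKM (2.53), but 67.9% of its exon bases overlap other annotated genes, whose reads were counted on both strands together. *Hopx*, a small homeodomain protein listed among myCAF genes, measured 7.94 and 6.60 RPKM against 0.169 and 0.457 RPKM (2.66). *Tnc*, encoding tenascin C, differed by 1.26, and its adjusted p was 0.19 when all 8 CAF libraries entered the fit.

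iCAFs are marked by cytokines and chemokines that attract leukocytes. All 26 iCAF genes were tested, and 16 were higher in EO771 CAFs and 3 in Pan02 CAFs, against 14.1% and 13.0% of all genes. The Pan02 count was near its share. *Saa3*, an acute-phase protein gene, measured 225 and 437 RPKM in the EO771 libraries and 9.47 and 3.19 RPKM in the Pan02 libraries. The libraries of each model differed from each other, and both EO771 values were above both Pan02 values (5.57 ± 0.51 SE, adjusted p = 0.00066). *Ccl2*, *Ccl7* and *Ccl8*, chemokines that attract monocytes, measured 124 and 159 RPKM in the EO771 libraries and 18.9 and 8.06 RPKM in the Pan02 libraries for *Ccl2*, 70.0 and 96.2 RPKM against 10.9 and 4.65 RPKM for *Ccl7* and 57.5 and 83.6 RPKM against 4.46 and 2.71 RPKM for *Ccl8*. Their log2 differences were 3.40, 3.34 and 3.97. *Cxcl12*, a chemokine that binds CXCR4 and is made by many stromal cells, measured 55.2 and 89.7 RPKM in the EO771 libraries and 21.6 and 10.5 RPKM in the Pan02 libraries (2.15 ± 0.38 SE, adjusted p = 0.0051). *Il6*, the defining iCAF cytokine, measured 7.18 and 16.5 RPKM against 4.97 and 1.61 RPKM, with 1 EO771 library well above the other. Its log2 difference of 1.60 ± 0.51 (SE, adjusted p = 0.039) lost the call without EO771 library 2 (adjusted p = 0.19), without Pan02 library 2 (0.085) and in a fit blocked on the replicate number (0.072).

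The iCAF genes higher in Pan02 CAFs were 2 chemokines that attract neutrophils through CXCR2 and a cytokine of the IL-6 family. *Cxcl2* measured 21.0 and 25.3 RPKM in the EO771 libraries and 151 and 70.3 RPKM in the Pan02 libraries (-2.11 ± 0.36 SE, adjusted p = 0.0045). *Cxcl5* measured 12.04 and 29.8 RPKM against 94.9 and 61.9 RPKM (-1.96), and *Il11* 2.74 and 2.76 RPKM against 17.3 and 6.90 RPKM (-1.68). The *Il11* call was lost without either EO771 library (adjusted p = 0.071 and 0.074).

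Most complement genes and leukocyte markers that were tested were higher in EO771 CAFs, against 14.1% of all genes. Of all genes, 13.0% were higher in Pan02 CAFs. Of 18 complement genes 14 were tested, and 10 were higher in EO771 CAFs and 1, *Masp1*, in Pan02 CAFs (-1.31), and the first count was 6 without EO771 library 2. *C1qa*, *C1qb* and *C1qc*, which encode the chains of complement C1q and are mainly made by macrophages, differed by 3.31, 3.36 and 3.22, with *C1qa* at 44.0 and 58.4 RPKM in the EO771 libraries and 3.33 and 5.29 RPKM in the Pan02 libraries. *Cd55*, an inhibitor of complement on the cell surface, measured 11.1 and 13.6 RPKM against 1.73 and 0.986 RPKM (2.52). Of 22 leukocyte markers 15 were tested, and 13 were higher in EO771 CAFs. Their summed level was 250.4 and 317 RPKM in EO771 CAFs and 61.7 and 82.1 RPKM in Pan02 CAFs. *Tyrobp*, an adaptor of myeloid receptors, measured 11.4 and 18.2 RPKM against 0.553 and 0.8 RPKM, and *Csf1r*, the macrophage growth factor receptor, 5.45 and 5.15 RPKM against 0.842 and 1.14 RPKM. *Ptprc*, which encodes the CD45 used for depletion, measured 0.947 and 0.902 RPKM against 0.09 and 0.092 RPKM, from 101 and 93 reads against 7.5 and 8.5 reads. The filter of 1 RPKM left it out of the test, and the T cell gene *Cd3e* was at most 0.043 RPKM. *Cd14*, a myeloid co-receptor for lipopolysaccharide, was the marker higher in Pan02 CAFs, with 8.30 and 9.97 RPKM against 35.1 and 42.2 RPKM (-1.97). The part of leukocyte RNA in the chemokine and complement differences was not tested.

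MHC class II genes carried the opposite sign. Class II molecules are heterodimers of α and β chains, CD74 is the invariant chain that guides them through the cell, H2-DM loads their peptides, and CIITA is the transactivator that drives the class. *Cd74* (chromosome 18) measured 51.2 and 69.1 RPKM in the EO771 libraries and 556 and 246 RPKM in the Pan02 libraries. Both Pan02 values were above both EO771 values, on average 6.67-fold, with a more than 2-fold gap between the Pan02 libraries themselves (-2.62 ± 0.39 SE, adjusted p = 0.003). *H2-Aa*, an α chain, measured 17.9 and 24.9 RPKM in the EO771 libraries and 173 and 85.0 RPKM in the Pan02 libraries. *H2-Ab1* and *H2-Eb1*, β chains, measured 26.3 and 41.0 RPKM against 232 and 102 RPKM and 16.2 and 22.9 RPKM against 176 and 90.5 RPKM. Their log2 differences were -2.47 ± 0.35 (SE, adjusted p = 0.0026), -2.19 ± 0.42 (SE, adjusted p = 0.0067) and -2.65 ± 0.34 (SE, adjusted p = 0.0018) in that order. *H2-DMb2* measured 0.155 and 0.128 RPKM in the EO771 libraries and 9.40 and 5.02 RPKM in the Pan02 libraries (-2.79), and *Ciita* 0.103 and 0.112 RPKM against 5.55 and 2.10 RPKM (-2.02 ± 0.35 SE, adjusted p = 0.005). *Cd74*, *H2-Aa*, *H2-Ab1* and *H2-Eb1* ranked the 4 libraries in 1 order, with Pan02 library 1 at the top and EO771 library 1 at the bottom. Pan02 library 1 was also the higher for *Ciita* and *H2-DMb2*. Their values in the EO771 libraries rested on 11 and 11.5 reads and on 2.5 and 2 reads and give no order. The same order of the Pan02 libraries was seen for genes outside this list, such as *Col1a1* and *Thy1*.

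Of 16 genes of the MHC class II and apCAF list 12 were tested, and 7 were higher in Pan02 CAFs and 3 in EO771 CAFs, against 13.0% and 14.1% of all genes. The genes higher in EO771 CAFs were *Saa3*, *Irf5* (1.12), an interferon regulatory factor, and *Ctss*, encoding the protease cathepsin S, at 28.7 and 38.4 RPKM against 3.005 and 3.32 RPKM (3.04 ± 0.16 SE, adjusted p = 0.00019), none of which encodes an MHC chain. The *Irf5* difference was 0.99 without EO771 library 2. Leukocytes also make class II molecules. Of the 15 leukocyte markers tested, 13 were higher in EO771 CAFs and *Cd14* in Pan02 CAFs, and the part of leukocyte RNA in the class II values was not tested. Mesothelial genes, which mark apCAFs in pancreatic tumors, were split. Of 13 genes 5 were tested, and 3 were higher in Pan02 CAFs, namely *Msln* and the keratin genes *Krt18* and *Krt19* described below. *Msln*, encoding mesothelin, measured 4.08 and 3.41 RPKM in the EO771 libraries and 131 and 142 RPKM in the Pan02 libraries (-4.86 ± 0.12 SE, adjusted p = 3.7e-05). *Wt1* (at most 0.211 RPKM), *Upk3b* (at most 0.074 RPKM) and *Lrrn4* (at most 0.435 RPKM) were near 0 in all 4 libraries.

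The promoters of class II genes carry a Y box, an inverted CCAAT sequence bound by NF-Y, upstream of the start. Sequences of the 110 bases before the RefSeq start (GRCm38.p6, which has the coordinates of mm10) are shown for *H2-Aa* and *H2-Eb1*, both higher in Pan02 CAFs, and for *H2-DMb1*, which was tested and not called and was chosen after its values were seen. Capitals mark TGATTGG, searched on both strands. The windows are chr17:34287824-34287933 (minus strand) for *H2-Aa*, chr17:34305757-34305866 (plus strand) for *H2-Eb1* and chr17:34153081-34153190 (plus strand) for *H2-DMb1*.
H2-Aa: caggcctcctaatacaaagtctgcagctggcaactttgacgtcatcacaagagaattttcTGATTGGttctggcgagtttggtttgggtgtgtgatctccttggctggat
H2-Eb1: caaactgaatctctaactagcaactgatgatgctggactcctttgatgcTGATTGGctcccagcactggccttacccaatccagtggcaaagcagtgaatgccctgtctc
H2-DMb1: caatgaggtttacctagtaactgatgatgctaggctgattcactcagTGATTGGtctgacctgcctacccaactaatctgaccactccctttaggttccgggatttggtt
The motif began 50, 61 and 63 bases before the start in *H2-Aa*, *H2-Eb1* and *H2-DMb1*. Over the 250 bases before each start, 7 of 12 list genes with a promoter entry held it, against 8.38% of 27025 symbols. It was found in 3 of 4 list genes higher in Pan02 CAFs and in 1 of 5 tested genes that were not. Those 5 include *Saa3*, *Irf5* and *Ctss*, which encode no MHC chain, so these counts do not relate the motif to the call. *H2-DMb1*, with 9.83 and 12.03 RPKM in the EO771 libraries and 34.5 and 15.03 RPKM in the Pan02 libraries (-1.01, adjusted p = 0.062), held the same letters at a distance like that of the called genes.

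Interferon-γ induces CIITA in many cell types, and guanylate-binding proteins and immunity-related GTPases are among its classic targets. Of 38 interferon-response genes 37 were tested. Of those, 12 were higher in Pan02 CAFs and 2 in EO771 CAFs, against 13.0% and 14.1% of all genes. The count in Pan02 CAFs ran from 11 to 18 with 1 library left out, and that in EO771 CAFs was 4 without Pan02 library 1. *Gbp2*, a guanylate-binding protein, measured 11.5 and 11.2 RPKM in the EO771 libraries and 171 and 95.3 RPKM in the Pan02 libraries (-3.38 ± 0.27 SE, adjusted p = 0.00047). *Igtp* and *Iigp1*, immunity-related GTPases, measured 7.19 and 9.88 RPKM against 104.8 and 49.9 RPKM and 8.16 and 8.23 RPKM against 75.8 and 30.4 RPKM (-2.96 and -2.42), and *Gbp4* 1.17 and 0.925 RPKM against 19.5 and 6.94 RPKM (-2.64). In each of these Pan02 library 1 was the highest, as for the class II genes. That order was not particular to these lists. Pan02 library 1 was also above Pan02 library 2 for genes such as *Col1a1*, *Thy1* and *Ccl2*, and below it for others, such as *Krt18* and *Col18a1*. Of other members of the list, *Ifit2* (-2.23), *Ifit3* (-1.98) and *Oasl2* (-1.26) were higher in Pan02 CAFs, and *Isg15* (0.68, adjusted p = 0.012) and *Rsad2* (0.56, adjusted p = 0.013) were under the size of a call. These 5 genes were chosen after their values were seen. *Irf8*, a myeloid regulator, was higher in EO771 CAFs, with 11.1 and 12.5 RPKM against 0.741 and 0.809 RPKM (2.85).

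The same window is shown for *Gbp2* (chr3:142620553-142620662, plus strand), *Igtp* (chr11:58199446-58199555, plus strand) and *Irgm1* (chr11:48871421-48871530, minus strand), 3 genes higher in Pan02 CAFs, of which *Irgm1* was chosen after its values were seen. Capitals mark GAAA and a second GAAA parted by any 2 bases, the core of the interferon-stimulated response element, on either strand.
Gbp2: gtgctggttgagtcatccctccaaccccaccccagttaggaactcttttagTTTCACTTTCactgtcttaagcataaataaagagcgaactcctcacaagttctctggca
Igtp: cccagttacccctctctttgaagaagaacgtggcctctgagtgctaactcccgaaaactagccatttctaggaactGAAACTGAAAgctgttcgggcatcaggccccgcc
Irgm1: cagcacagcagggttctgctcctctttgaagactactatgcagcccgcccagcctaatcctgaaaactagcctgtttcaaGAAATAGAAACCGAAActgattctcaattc
The match of *Gbp2* lies on the other strand, as TTTCACTTTC, and *Irgm1* holds 2 overlapping matches. Of 30 list genes with an entry 17 held the motif in 250 bases, against 3.46% of 27025 symbols. It was found in 7 of 9 genes higher in Pan02 CAFs and in 10 of 21 tested genes that were not. The list holds interferon-response genes, so a share above that of all symbols is no result of these libraries. The relation of the motif to the call was not tested. *Irgm1* measured 11.3 and 10.7 RPKM against 73.1 and 39.9 RPKM (-2.20).

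The MHC class I pathway was less one-sided. All 22 genes were tested, and 4 were higher in Pan02 CAFs and 2 in EO771 CAFs, shares near the 13.0% and 14.1% of all genes. *H2-K1*, a classical class I heavy chain, measured 253 and 289.9 RPKM in the EO771 libraries and 884 and 599 RPKM in the Pan02 libraries (-1.42 ± 0.22 SE, adjusted p = 0.0031). *Nlrc5*, the class I transactivator, and *Psmb10*, an immunoproteasome subunit, gave log2 differences of -1.43 and -1.27. The genes higher in EO771 CAFs were *H2-Q6* (1.35) and *H2-Q7* (1.99), which are close copies of other class I genes, so that reads may be shared between them.

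Keratins separated the groups gene by gene. Keratins 8 and 18 pair with each other in simple epithelia. *Krt8* (chr15:101996711-102004342, minus strand) measured 492 and 495 RPKM in the EO771 libraries and 385 and 545 RPKM in the Pan02 libraries. Its values overlapped and it was not called (0.11 ± 0.19 SE, adjusted p = 0.65). *Krt18* (chr15:102028216-102032026, plus strand), which lies 23.9 kb away, measured 0.729 and 1.40 RPKM in the EO771 libraries and 349 and 483 RPKM in the Pan02 libraries. It was near 0 in EO771 CAFs and among the high genes of Pan02 CAFs (-7.66 ± 0.22 SE, adjusted p = 4.7e-05). *Krt19* and *Krt7* followed *Krt18*, with 0.768 and 3.18 RPKM against 82.4 and 81.4 RPKM and 0.689 and 0.523 RPKM against 49.5 and 49.5 RPKM (-4.93 and -4.98). *Krt17*, a basal and stress keratin, went the other way, with 48.2 and 44.5 RPKM in the EO771 libraries and 0.04 and 0 RPKM in the Pan02 libraries (5.54 ± 0.12 SE, adjusted p = 3.1e-05), and *Krt16* measured 21.6 and 16.8 RPKM against 1.07 and 0.323 RPKM (3.599), though reads of these close paralogs may be shared. Of 19 keratins 10 were tested, and 5 were higher in Pan02 CAFs and 3 in EO771 CAFs, against 13.0% and 14.1% of all genes. In whole tumors 13 keratins were tested, and 8 were higher in Pan02 and 2 in EO771 tumors. The shares over all genes tested in tumors were 21.5% and 12.4%. The log2 difference in tumors was -8.52 for *Krt18*, -8.76 for *Krt19* and 7.46 for *Krt17*. *Krt8* measured 656 ± 17.6 RPKM in EO771 and 574 ± 141 RPKM in Pan02 tumors (mean ± SD, n = 3 each) and was not called (adjusted p = 0.4).

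Of 43 epithelial junction and regulator genes 21 were tested, with a median log2 difference of -1.52. Of those, 15 were higher in Pan02 CAFs and 1 in EO771 CAFs, against 13.0% and 14.1% of all genes. The second count was 2 without EO771 library 2, Pan02 library 1 or Pan02 library 2, and the first was 9 with a filter of 5 RPKM, which tests fewer genes. Their summed level was 95.1 and 94.1 RPKM in EO771 CAFs and 429.9 and 402 RPKM in Pan02 CAFs. *Cdh1*, encoding E-cadherin, measured 0.126 and 0.351 RPKM in the EO771 libraries and 14.1 and 10.5 RPKM in the Pan02 libraries (-3.42 ± 0.19 SE, adjusted p = 0.00019). *Cd24a*, a surface glycoprotein of epithelial and carcinoma cells, measured 0.133 and 0.275 RPKM against 66.9 and 58.2 RPKM (-5.72), and *Itgb4*, an integrin of hemidesmosomes, 1.85 and 2.17 RPKM against 54.7 and 49.8 RPKM (-4.15). *Spint2*, a protease inhibitor of epithelia, differed by -4.61. The defining markers *Epcam* (0.188 and 0.438 RPKM against 2.08 and 0.764 RPKM), *Grhl2* (at most 0.163 RPKM) and *Esrp1* (at most 0.252 RPKM) were left out of the test by the filter of 1 RPKM. *Epcam* held 8 and 18 reads in the EO771 and 69 and 28 reads in the Pan02 libraries. The gene higher in EO771 CAFs was *Itga6*, an integrin α chain also found on endothelium (1.59). EO771 and Pan02 are both carcinoma lines, and the part of tumor cell RNA in these and the keratin differences was not tested.

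Regulators of mesenchymal identity went both ways. Of 19 mesenchymal transcription factors 18 were tested, and 7 were higher in EO771 CAFs and 4 in Pan02 CAFs. The shares of all genes were 14.1% and 13.0%. *Twist2*, a helix-loop-helix factor, measured 69.6 and 69.9 RPKM in the EO771 libraries and 3.44 and 2.54 RPKM in the Pan02 libraries (4.16 ± 0.14 SE, adjusted p = 6.1e-05), with 46.5% of its exon bases shared with other annotated genes. *Prrx1*, a homeodomain factor of limb and body wall mesenchyme, measured 37.7 and 36.4 RPKM against 6.33 and 3.64 RPKM (2.71 ± 0.23 SE, adjusted p = 0.00051). *Osr1* differed by 2.30 and *Twist1* by 1.25. Higher in Pan02 CAFs were *Foxf1*, a forkhead factor of visceral mesenchyme, with 1.30 and 0.897 RPKM in the EO771 libraries and 28.2 and 18.8 RPKM in the Pan02 libraries (-3.53 ± 0.22 SE, adjusted p = 0.00027), *Prrx2*, with 27.5 and 31.1 RPKM against 113 and 68.0 RPKM (-1.55), and *Meox1* (-1.67). *Zeb1*, a repressor of E-cadherin, was not called (-0.33, adjusted p = 0.057).

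Hox genes, which hold a record of position along the body axis, also went both ways. Of 39 genes 23 were tested, and 5 were higher in EO771 CAFs and 6 in Pan02 CAFs, against 14.1% and 13.0% of all genes. *Hoxd8*, *Hoxd9* and *Hoxd10*, neighbours on chromosome 2, measured 12.6 and 12.8 RPKM in the EO771 libraries and 1.44 and 0.52 RPKM in the Pan02 libraries for *Hoxd8*, 9.45 and 9.10 RPKM against 0.413 and 0.147 RPKM for *Hoxd9* and 6.08 and 7.54 RPKM against 0.033 and 0 RPKM for *Hoxd10*. All were higher in EO771 CAFs, with log2 differences of 2.83, 3.01 and 2.94. *Hoxa5* on chromosome 6 measured 1.20 and 0.866 RPKM in the EO771 libraries and 35.6 and 29.3 RPKM in the Pan02 libraries, and *Hoxa3*, with 27.1% of its exon bases shared with other genes, 0.428 and 0.561 RPKM against 17.9 and 17.2 RPKM. These and *Hoxa6* were higher in Pan02 CAFs, with log2 differences of -4.04, -3.63 and -2.85. *Hoxc10* was higher in EO771 CAFs (1.44) and *Hoxb6* in Pan02 CAFs (-1.05), the latter with a log2 difference under 1 without EO771 library 1 or Pan02 library 2.

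TGF-β signals through type I and type II receptors to SMAD proteins. All 19 genes of the pathway were tested. Of these, 8 were higher in EO771 CAFs and 5 in Pan02 CAFs, against 14.1% and 13.0% of all genes. Among ligands, *Tgfb2* was higher in EO771 CAFs (1.77), and *Tgfb3* was higher in Pan02 CAFs, with 17.4 and 19.1 RPKM against 41.2 and 47.5 RPKM (-1.23). Among receptors, *Eng* and *Acvrl1*, a co-receptor and a type I receptor best known from endothelium, were higher in EO771 CAFs, with *Eng* at 31.1 and 32.3 RPKM against 7.22 and 4.09 RPKM and log2 differences of 2.34 and 2.36. *Tgfbr1*, the type I receptor of most cells, was higher in Pan02 CAFs, with 4.87 and 4.78 RPKM in the EO771 libraries and 18.8 and 25.0 RPKM in the Pan02 libraries (-1.96 ± 0.16 SE, adjusted p = 0.00048). The signal transducer *Smad3* measured 10.998 and 11.02 RPKM against 40.2 and 41.5 RPKM and the inhibitory *Smad6* 1.18 and 1.38 RPKM against 9.35 and 8.64 RPKM, both higher in Pan02 CAFs (-1.80 and -2.13). Ligands and receptors of the pathway each held members higher in either model.

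Of 23 genes of PDGF, FGF, HGF and IGF signalling 21 were tested, and 4 were higher in EO771 CAFs and 3 in Pan02 CAFs, again near the shares of all genes. *Igf2*, an insulin-like growth factor of fetal tissues, measured 0.189 and 0.146 RPKM in the EO771 libraries and 356 and 415 RPKM in the Pan02 libraries, a 2302-fold gap of the means (-8.37 ± 0.12 SE, adjusted p = 1.4e-05). The EO771 values of *Igf2* rested on 6 and 4.5 reads, so the size of this gap is imprecise. Of its exon bases 64.5% are shared with other annotated genes at the locus. *Pdgfc*, a ligand of PDGFRα, measured 2.82 and 2.78 RPKM against 28.6 and 25.5 RPKM (-2.88), and *Pdgfb* differed by -1.93. Genes higher in EO771 CAFs were the receptor *Fgfr1* (1.47) and the IGF-binding proteins *Igfbp4*, *Igfbp5* and *Igfbp6* (1.75, 1.63 and 1.97), with *Igfbp6* at 148 and 213 RPKM against 45.6 and 43.6 RPKM. The *Igfbp4* call was lost without EO771 library 2 (adjusted p = 0.059).

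Of 24 immunosuppressive and checkpoint genes 16 were tested, and 5 were higher in EO771 CAFs and 2 in Pan02 CAFs. The shares of all genes were 14.1% and 13.0%. *Ptges*, the prostaglandin E synthase, measured 32.1 and 33.3 RPKM in the EO771 libraries and 3.06 and 1.66 RPKM in the Pan02 libraries (3.36 ± 0.22 SE, adjusted p = 0.00027). *Nt5e*, encoding CD73, which makes adenosine, measured 13.9 and 15.3 RPKM against 2.52 and 0.345 RPKM (2.84). *Nos2*, the inducible nitric oxide synthase, measured 2.04 and 8.55 RPKM against 0.971 and 0.495 RPKM (1.65), and its log2 difference was 0.83 without EO771 library 2 and its adjusted p 0.09 without Pan02 library 2. The genes higher in Pan02 CAFs were *Cd274*, encoding PD-L1, at 1.95 and 2.21 RPKM against 7.30 and 3.84 RPKM (-1.04), and *Vegfa*, at 56.9 and 57.2 RPKM against 188 and 84.8 RPKM (-1.13), with Pan02 library 1 well above library 2 in both. Both calls were lost without EO771 library 1, EO771 library 2 or Pan02 library 1.

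Most endothelial and pericyte markers were also higher in EO771 CAFs, against 14.1% of all genes. Of all genes, 13.0% were higher in Pan02 CAFs. Of 14 endothelial genes 11 were tested, and 7 were higher in EO771 CAFs and none in Pan02 CAFs, and the summed level was 96.2 and 95.5 RPKM against 25.5 and 13.7 RPKM. *Pecam1*, encoding CD31, measured 9.83 and 9.73 RPKM in the EO771 libraries and 2.23 and 1.64 RPKM in the Pan02 libraries, and *Cdh5*, encoding VE-cadherin, 13.4 and 14.3 RPKM against 1.98 and 1.15 RPKM (1.88 and 2.55). *Egfl7* measured 34.5 and 35.3 RPKM against 3.91 and 1.53 RPKM (3.35). All 10 pericyte genes were tested, and 9 were higher in EO771 CAFs, with a summed level of 93.2 and 117 RPKM against 58.5 and 41.2 RPKM. *Rgs5*, a regulator of G protein signalling in pericytes, measured 22.8 and 29.8 RPKM against 4.89 and 4.33 RPKM (2.27). *Notch3*, a receptor of mural cells, was the exception, with 4.75 and 5.54 RPKM against 31.5 and 20.5 RPKM (-2.11 ± 0.22 SE, adjusted p = 0.00094). The part of vascular cells in *Eng*, *Acvrl1* and the contractile genes was not tested.

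**Figure D3:**
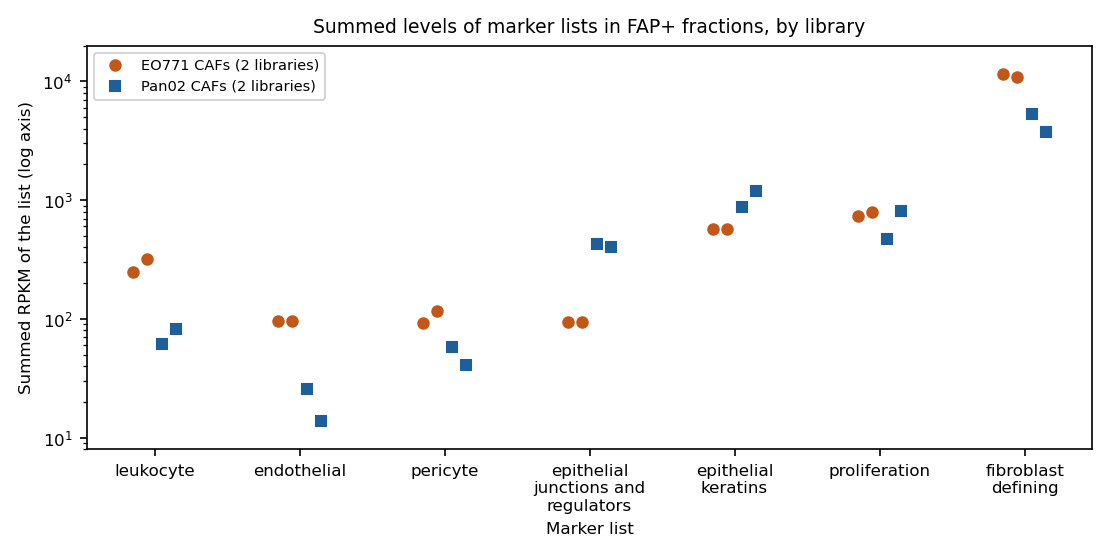
Summed RPKM of the members of 7 marker lists in each CAF library, on a log axis. Circles are EO771 libraries and squares Pan02 libraries. Leukocyte, endothelial and pericyte sums were higher in both EO771 libraries, and epithelial junction and keratin sums were higher in both Pan02 libraries.

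Of 24 proliferation genes, all tested, 1 was called, *Mki67*, a marker of cycling cells, with 4.82 and 4.28 RPKM in the EO771 libraries and 10.2 and 18.5 RPKM in the Pan02 libraries (-1.41 ± 0.27 SE, adjusted p = 0.0069), and this call was lost without EO771 library 2 (adjusted p = 0.055). Without Pan02 library 2, 9 proliferation genes were higher in EO771 CAFs, and without Pan02 library 1, 2 were higher in Pan02 CAFs. The summed level was 734 and 796 RPKM in EO771 CAFs and 474 and 813 RPKM in Pan02 CAFs, so that the Pan02 libraries lay on either side of the EO771 libraries.

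The genes with the largest differences of all were mostly outside these groups. *Esx1*, a homeobox gene of placenta and testis, measured 734 and 743 RPKM in the EO771 libraries and 0.233 and 0.123 RPKM in the Pan02 libraries (9.30 ± 0.10 SE, adjusted p = 1.2e-05). *Crabp1*, which binds retinoic acid, measured 435 and 347 RPKM against 5.36 and 2.28 RPKM (6.42). *Nppb*, encoding a natriuretic peptide, measured 88.6 and 90.4 RPKM against 0 and 0.108 RPKM. *Hand1*, a helix-loop-helix factor of heart and placenta, measured 49.3 and 46.5 RPKM in the EO771 libraries and 0 RPKM in both Pan02 libraries. It was at least 514-fold higher in EO771 CAFs when 3 reads per library were taken as the limit of detection, a limit that covers counting error only. *Aqp3*, a water and glycerol channel, was at least 602-fold higher, with 65.9 and 55.3 RPKM in the EO771 libraries and 0 RPKM in both Pan02 libraries. *Dusp9*, *Crmp1* and *Vgf* measured 68.1 and 70.2 RPKM against 0.183 and 0.301 RPKM, 50.01 and 52.7 RPKM against 0.052 and 0.038 RPKM and 59.8 and 59.6 RPKM against 0.461 and 0.154 RPKM, all near 0 in Pan02 CAFs, and *4930550L24Rik* was of the same kind (5.85).

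On the Pan02 side, after *Igf2* and *Krt18*, *Tspan8*, a tetraspanin, measured 0.106 and 0.201 RPKM in the EO771 libraries and 214 and 233 RPKM in the Pan02 libraries (-7.61 ± 0.11 SE, adjusted p = 1.4e-05). *Enpp2*, encoding autotaxin, which makes lysophosphatidic acid, measured 2.89 and 2.61 RPKM against 611 and 514 RPKM (-7.23). *Cp*, encoding the copper carrier ceruloplasmin, measured 2.69 and 2.73 RPKM against 360.2 and 365 RPKM (-6.61). Secreted regulators followed, namely *Bmp4*, with 0.613 and 0.88 RPKM in the EO771 libraries and 129.6 and 101 RPKM in the Pan02 libraries (-6.05 ± 0.16 SE, adjusted p = 4.3e-05), and *Notum*, which inactivates Wnt proteins, with 0.241 and 0.187 RPKM against 128 and 126 RPKM (-6.72) and 38.1% of its exon bases shared with other genes. *Cldn2* and *Kirrel3* completed the 10 largest, with -6.18 and -5.66. The part of tumor cell RNA in the largest differences, in either direction, was not tested.

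Whole tumors of the same models, which hold all cells of the tumor, were compared from other libraries, with counts tested by edgeR. Of 14687 genes tested, 1816 (12.4%) were higher in EO771 tumors and 3164 (21.5%) in Pan02 tumors. The median log2 difference of all genes was -0.07, and 0.04 with total-count scaling. Of the 12407 genes tested in both CAFs and tumors, 2351 were higher in Pan02 tumors and 1527 in EO771 tumors. Of the genes higher in Pan02 CAFs, 1592 were tested in tumors, and 1183 of them (74.3%) were also higher in Pan02 tumors, which was 50.3% of the tumor list over genes tested in both. A single gene, *Chrna1*, was higher in Pan02 CAFs and in EO771 tumors, and it is named for that reason. Of the genes higher in EO771 CAFs, 1757 were tested in tumors, and 796 (45.3%, and 52.1% of the tumor list) were also higher in EO771 tumors, while 326 (18.6%, and 13.9% of the tumor list) were higher in Pan02 tumors.

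**Figure D4:**
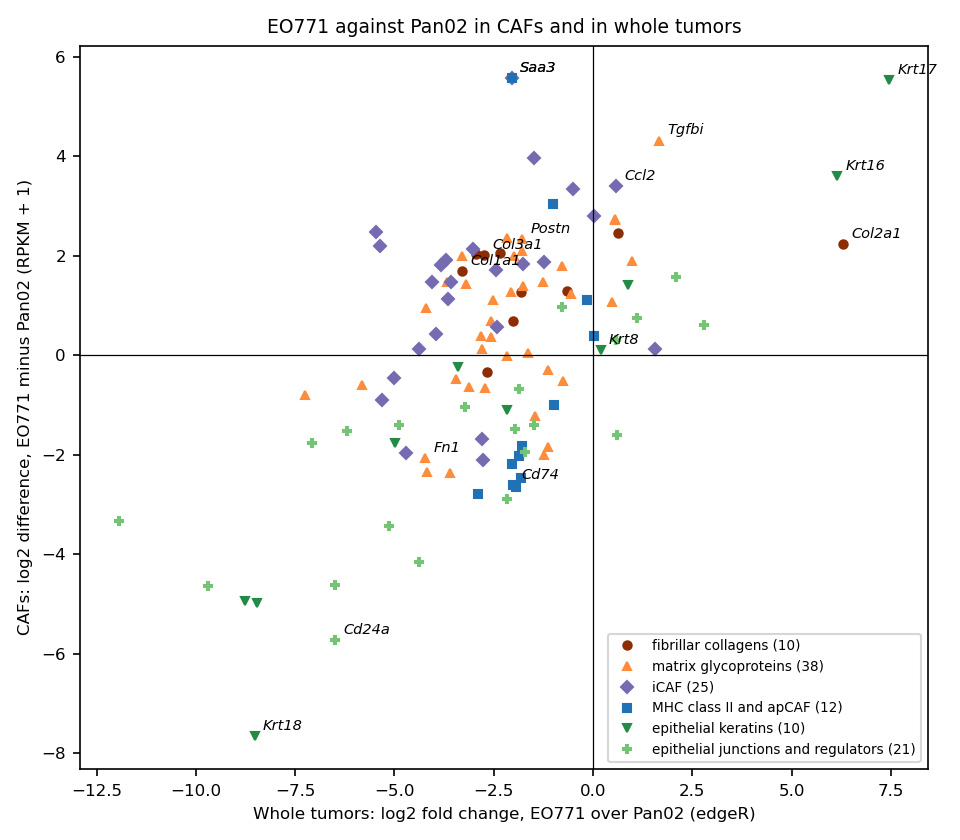
Log2 difference between EO771 and Pan02 in whole tumors (horizontal) and in CAFs (vertical) for members of 6 gene groups tested in both, each point 1 gene, with chosen genes labelled. *Col1a1*, *Col3a1* and *Saa3* lie at the upper left, higher in EO771 CAFs and in Pan02 tumors, *Tgfbi* and *Krt17* at the upper right and *Cd74*, *Fn1* and *Krt18* at the lower left.

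*Col1a1* and other fibrillar collagens had opposite signs in CAFs and tumors, a difference that was not tested itself. *Col1a1* measured 406 ± 146 RPKM in EO771 and 3994 ± 502 RPKM in Pan02 tumors (mean ± SD, n = 3 each), a log2 difference of -3.30 (adjusted p = 0.0002), where CAFs gave 1.69. All 3 EO771 tumors were below all 3 Pan02 tumors. *Col1a2*, *Col3a1* and *Col5a2* gave -2.96, -2.75 and -2.35 in tumors. *Fap* itself measured 0.424 ± 0.174 RPKM in EO771 and 4.02 ± 1.78 RPKM in Pan02 tumors (mean ± SD, n = 3 each), a log2 difference of -3.25 (adjusted p = 0.0014). Among fibroblast markers 8 of 11 were higher in Pan02 tumors and none in EO771 tumors, and among fibrillar collagens 7 of 11 and 1. Over all genes tested in tumors the shares were 21.5% and 12.4%. Signs were also opposite for *Postn* (-1.78 in tumors), *Tagln* (-2.13) and *Saa3* (-2.04), among others. Tumor values were not adjusted for the share of CAFs in each tumor, and its part in them was not tested.

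*Fn1*, *Col28a1* and *Msln* were higher in Pan02 in both CAFs and tumors, with -4.22, -6.99 and -5.00 in tumors. *Cd74* measured 653 ± 111 RPKM in EO771 and 2638 ± 1299.7 RPKM in Pan02 tumors (mean ± SD, n = 3 each), a log2 difference of -2.01 (adjusted p = 0.0055), and *H2-Aa* and *Gbp2* gave -1.81 and -3.33. *Tgfbi* was higher in EO771 in both (1.67 in tumors). It was the 1 matrix glycoprotein of 38 higher in EO771 tumors, where 30 were higher in Pan02 tumors. The shares of all genes were 12.4% and 21.5%. *Esx1* measured 966 ± 7.93 RPKM in EO771 and 1.21 ± 0.403 RPKM in Pan02 tumors (mean ± SD, n = 3 each), a log2 difference of 9.61. *Igf2* and *Enpp2* gave -10.01 and -8.79. *Thy1* and *Crabp1*, higher in EO771 CAFs, were not called in tumors (-0.93 and 1.28), and for *Thy1* all 3 EO771 tumors lay below all 3 Pan02 tumors.

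Genes restricted to the tumors of 1 model were also measured in its CAFs. These 6 genes had been picked from the tumors of this series, so their levels are given as a description. *Sohlh2*, a germ cell factor, measured 9.22 and 9.62 RPKM in the EO771 libraries and 0.026 and 0 RPKM in the Pan02 libraries of CAFs, and *Gm364* 29.2 and 31.1 RPKM against 0 and 0.065 RPKM. *Hand1*, the other EO771 gene, measured 85.2 ± 9.10 RPKM in EO771 and 0.102 ± 0.049 RPKM in Pan02 tumors (mean ± SD, n = 3 each). *Slurp1*, *Chil4* and *Ehf*, high in Pan02 tumors, measured 0 RPKM in both EO771 libraries and 17.2 and 36.7 RPKM in the Pan02 libraries for *Slurp1*, 0 RPKM in both EO771 libraries and 23.1 and 45.5 RPKM in the Pan02 libraries for *Chil4* and 0 and 0.057 RPKM against 23.03 and 26.0 RPKM for *Ehf*. Against the floor of 3 reads per library, *Slurp1* was at least 95.2-fold and *Chil4* at least 349-fold higher in Pan02 CAFs. Whether these genes were read from sorted fibroblasts or from tumor cells in the sort was not tested.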

How the data were processed

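FAP+ cells were sorted from tumors, their poly(A) RNA was sequenced with NEBNext kits, and the authors aligned the reads to mm10 with STAR 2.5.0c and counted them over exons of RefSeq transcripts with HOMER, on both strands together. For CAFs the authors deposited RPKM, and for tumors expected counts without normalization, in steps of 0.5 reads. Tumor titles give Pan01 where the cell line label gives Pan02, and the label was followed. Another 5 columns were not used here. For every symbol the transcript of highest mean stood in, which gave 24940 symbols from 40458 transcripts, of which 2 name no gene and held 2.1e-05% of tumor counts. Of these symbols 69.4% have 1 transcript.

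The CAF comparison used limma 3.58.1 with a variance trend, on log2(RPKM + 1), and adjusted p-values by Benjamini-Hochberg over the 12694 symbols with at least 1 RPKM in at least 2 of the 4 libraries, and the other 12246 were not tested. Low RPKM values were multiples of 0.5 reads for 100.0% of values checked (tolerance 0.12 reads), which gave the read totals, and edgeR 4.0.16 was run on the recovered reads as an alternative chosen after seeing the data. Tumor counts, 11498467 to 21948314.5 per library, were rounded up and tested with edgeR (quasi-likelihood, TMM, filterByExpr, common dispersion 0.0604), and DESeq2 1.42.0 was an alternative. Tumor RPKM uses TMM-scaled library sizes, and each table chose its own transcript, so tumor and CAF levels were not compared. Floors and read totals cover counting error only. Each test was also run on simulated counts, drawn with a common dispersion for all genes and libraries. In the data the Pan02 CAF libraries stood further apart than the EO771 libraries, so the simulation does not give the error rate here. The correlation of deviations of libraries with the same number was 0.06 in CAFs and 0.006 to 0.043 in tumors, and libraries were not treated as paired.

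The comparison, the gene lists and the tests were chosen with earlier results of these data known. Named genes are *Fap*, *Col1a1*, *Cd74*, the markers set as defining in each list, up to 4 called members per list and direction with a mean of at least 5 RPKM, and the 10 largest called differences per direction with a mean of at least 10 RPKM. They came to 182 genes, of which 174 were tested. Alternatives covered the pseudocount, filter, scaling, transcript, other libraries in the fit, variance trend, replicate block and leaving out each library. Promoter sequences are from RefSeq (GRCm38.p6). Scripts ran in Python 3.11.15 (pandas 2.3.3, numpy 2.4.6, matplotlib 3.10.9) and R 4.3.3.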

Additional observations from a re-analysis of the deposited data

Results flagged for a closer look

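Of the genes named here, 26 were called higher in EO771 CAFs and higher in Pan02 tumors, with every EO771 library above every Pan02 library in CAFs and every EO771 tumor below every Pan02 tumor. Over all 1757 genes called higher in EO771 CAFs and tested in tumors, 326 (18.6%) were called higher in Pan02 tumors. That share is near that of all 12407 genes tested in both, of which 2351 were higher in Pan02 tumors. The genes named here were chosen with such values known. Values in parentheses are the log2 difference of EO771 minus Pan02 in CAFs and then in tumors. The difference between the CAF and the tumor contrast was not tested, since the tables hold different units. Among the fibroblast markers these were *Fap* (1.15 and -3.25), *Pdpn* (2.87 and -1.17), *Col1a1* (1.69 and -3.30), *Col1a2* (2.05 and -2.96) and *Col3a1* (2.02 and -2.75). Among the matrix and matrix-processing genes these were *Col5a2* (2.07 and -2.35), *Postn* (2.33 and -1.78), *Tnc* (1.26 and -2.06), *Mfap2* (2.36 and -2.17), *Gpc3* (1.79 and -3.17), *Srgn* (2.29 and -2.82), *Loxl2* (2.71 and -2.09), *P4ha3* (2.08 and -1.56), *Adamts2* (2.498 and -1.71) and *Mmp3* (2.61 and -2.06). Among the contractile and pericyte genes these were *Tagln* (2.53 and -2.13), *Des* (1.97 and -2.63) and *Ndufa4l2* (1.98 and -3.63). Among the secreted and immune genes these were *Saa3* (5.57 and -2.04), *Cxcl12* (2.15 and -3.03), *Nos2* (1.65 and -1.87), *Cd55* (2.52 and -2.69), *H2-Q7* (1.99 and -1.47) and *Igfbp5* (1.63 and -4.46). Among the transcription factors these were *Osr1* (2.30 and -2.57) and *Osr2* (1.38 and -3.42). The CAF values ran from 1.15 to 5.57 and the tumor values from -4.46 to -1.17. *Osr2* lost its CAF call without EO771 library 1 (adjusted p = 0.056), without EO771 library 2 (adjusted p = 0.071) and without Pan02 library 2, where its log2 difference was 0.93. *Nos2* lost it without EO771 library 2 (adjusted p = 0.063) and without Pan02 library 2 (adjusted p = 0.09), and *Fap* and *Col1a1* as given above. The part of the share of fibroblasts in each tumor was not tested.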

How the results depend on the processing

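Counts of genes higher in EO771 and in Pan02 CAFs were 1787 and 1647. They were 3869 and 4193 with the adjusted p alone, which admits smaller differences, and 3960 genes were higher in EO771 tumors on that rule against 1816. Under the other alternatives the counts stayed within 1.5 times. Leaving out 1 library gave 1623 to 1862 and 1585 to 1735 in CAFs, and 1649 to 2120 and 2683 to 3323 in tumors. A pseudocount of 0.1 gave 2135 and 2136, and edgeR on recovered reads 2229 and 2048, of which 1775 and 1618 were shared. With the replicate number as a block, counts were 1789 and 1646 in CAFs and 1840 and 3001 in tumors, and *Il6* (adjusted p = 0.072) and *Nos2* (adjusted p = 0.052) lost their calls in CAFs. Of 169 named genes called in CAFs, 17 lost the call when 1 library was left out and 19 under any setting. The cause was not tested. The *Krt8* difference, not called, ranged from -0.14 to 0.36 when 1 library was left out. Genes under 1 RPKM in most libraries were left out by the filter, and without it the counts in CAFs were 1766 and 1624.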
